A study of Mus musculus with 63 samples.

Results

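In 20 tumours of the mouse small intestine, the larger (major) of 2 dissected clones was sorted by whether its RNA held 1 prevailing Confetti reporter. The Confetti allele carries 4 fluorescent reporters, written here as in the data: EYFP (yellow), hrGFP (green), mCerulean (cyan) and tdimer2 (red). For each major clone the level of the highest reporter was divided by that of the second highest. A ratio below 2 was taken as no dominant reporter, which held for 8 of the 20 major clones, and a ratio of 2 or more as a dominant reporter, which held for 12. The groups were thus chosen by these reporter levels, which are given below as a description and with no test.

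The 20 clones came from 63 libraries, the others being the 20 partner clones of the same tumours and 23 tumours that were not divided. All animals carried Apchet, that is 1 floxed and 1 intact Apc allele, with a Villin-creERT2 transgene and R26R-Confetti on a C57BL/6 background. They received 4 mg tamoxifen when over 8 weeks old, per the labels, and ENU, an alkylating mutagen, at 200 mg/kg 10 days later, so every group shared the genotype and both agents. There was no untreated or Cre-free library. Only 2 mice were sampled, the female dwba2.2d and the male dwaj1.3a, so sex and animal cannot be told apart, and p-values measure the spread between tumours of these 2 mice. The group without a dominant reporter held 5 female and 3 male clones, and the group with one held 5 female and 7 male clones.

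Confetti reporters are switched on by Cre recombination, which lets 1 reporter of a cassette inserted in the Rosa26 locus be expressed and marks a cell and its descendants for good. The Villin-driven Cre acts in the intestinal epithelium after tamoxifen, so stroma, vessels and leukocytes are not marked, and glands in which the allele did not recombine stay without colour. Tumours of mixed colour, or of coloured and colourless glands together, were called heterotypic by the study. In adenomas that lose Apc, the WNT pathway runs unchecked and crypt genes stay on.

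The epithelial origin of the major clones was plain in both groups. The 14 epithelial markers summed to 391429 to 692259 normalised counts in the clones without a dominant reporter and to 396677 to 640962 in those with one. Normalised counts are gene counts estimated by the authors and scaled between libraries. Epcam, an adhesion molecule of epithelial cells, had a median of 46379 normalised counts without a dominant reporter (37110 to 63025) and of 49348 with one (36952 to 57118). Values summed to 27072900 to 37617400 per library without a dominant reporter and to 27658800 to 32523400 with one. Sums did not differ beyond the spread between clones (permutation test within mouse, two-sided, p = 0.367), nor did the share of Rn18s, a ribosomal RNA (medians of 1.78% and 1.20%, permutation p = 0.496).

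Reporter levels in the group without a dominant reporter lay close together and low. The highest reporter had a median of 728 normalised counts over the 8 clones, from 393 in female tumour 29 to 1427 in male tumour 26. The second highest lay between 252 and 930. The 4 reporters together came to 922 to 3549 normalised counts (median 2036). In the 12 clones with a dominant reporter the highest reached a median of 5634, from 916 in female tumour 19 to 9716 in female tumour 23, and the 4 together came to 1852 to 10929 (median 6741). Female tumour 19 was the only one of the 12 whose highest reporter fell in the range of the other group, and the remaining 11 all had 3563 or more.

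Ratios ran from 1.003 to 1.92 without a dominant reporter. Female tumour 24 had its red and green reporters almost level, with 753 of tdimer2 and 751 of hrGFP. Male tumour 23 had a ratio of 1.04, female tumour 22 of 1.12, female tumour 27 of 1.25, male tumour 20 of 1.296, male tumour 26 of 1.53 and female tumour 29 of 1.56. Just inside the threshold stood female tumour 30, at 1.92, with 1243 of hrGFP over 648 of EYFP. Just outside stood female tumour 19, at 2.36, with 916 of EYFP over 389 of the next reporter. The other 11 clones with a dominant reporter had ratios of 4.76 to 30.95, so no major clone lay between 2.36 and 4.76.

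**Figure D1:**
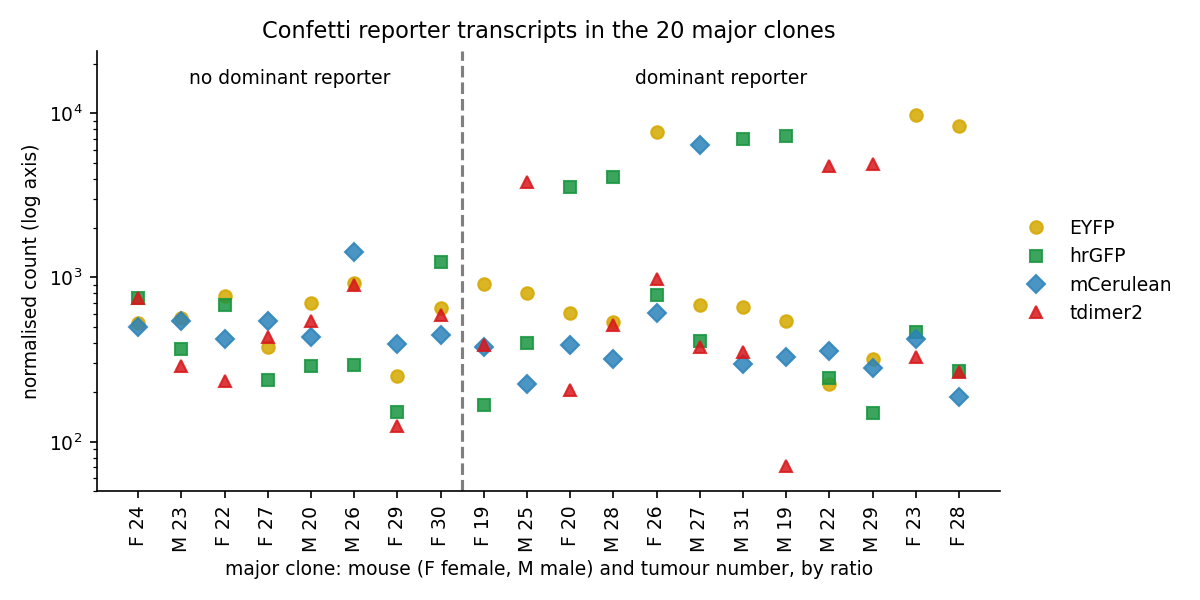
Normalised counts (log axis) of the 4 Confetti reporters in each of the 20 major clones, ordered by the ratio of the highest to the second highest. Left of the dashed line (ratio below 2) all points lie at or below 1427. To its right 11 of 12 clones have 1 reporter at 3563 or above, female tumour 19 being the exception.

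No single colour accounted for the group without a dominant reporter. EYFP was highest in 3 of its 8 clones, mCerulean in 3, hrGFP in 1 and tdimer2 in 1. Among the 12 clones with a dominant reporter EYFP prevailed in 4, hrGFP in 4, tdimer2 in 3 and mCerulean in 1. The reporters that were not the highest had 70.8 to 974 normalised counts in the 20 major clones (60 values, median 383), 15.8 to 2560 in the partner clones (median 313) and 2.09 to 1417 in undivided tumours (median 322). The leading reporters of the 8 clones, at 393 to 1427, thus overlapped with the levels of reporters that did not lead in each kind of library.

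EYFP and mCerulean are both variants of the jellyfish GFP and are alike in sequence, so reads may be divided between them. The overlap of the 2 transcripts was not computed here. In the 28 libraries of the series with EYFP dominant, mCerulean stood at 0.168% to 41.3% of EYFP (median 4.34%). Its level there was 15.8 to 2049 normalised counts (median 360), beside 2.09 to 427 (median 245) in the 20 libraries with tdimer2 dominant. In the same 28 libraries hrGFP, which is not a variant of that protein, had 17.02 to 2321 (median 270). With EYFP and mCerulean added together before the ratio was taken, 3 major clones were without a dominant reporter and 17 had one, so 5 of the 8 changed group.

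Every major clone without a dominant reporter had a partner clone that did have one. In these 8 partners the ratio was 4.67 to 45.4, with tdimer2 leading in 6 and EYFP in 2, at 2148 to 23732 normalised counts (median 4508). The partner's reporter was also present in the major clone, at 2.49% to 25.2% of its level in the partner (median 14.7%). In the 12 tumours whose major clone had a dominant reporter the same share was 4.76% to 23.4% (median 10.2%). The ranges of the 2 groups overlapped over most of their length. The partner's reporter had a median of 566 normalised counts in the 8 major clones and of 576 in the 12. Among reporters that led in neither clone, the highest had medians of 595 and 388, and the lowest of 289 and 225. What part of these levels came from cells of the partner within the dissected piece was not tested.

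In female tumours 24 and 22 the partner's colour was itself the highest in the major clone without a dominant reporter: tdimer2 in tumour 24 at 753 against 3681 in the partner, and EYFP in tumour 22 at 766 against 6126. In the other 6 it ranked second in 3, 1 place lower in 2 and last in 1. The labels place the major clone of tumour 22 in segment SI20 and its partner in SI10, and the major clone's segment is used here. Among the 12 clones with a dominant reporter, 11 had a colour that differed from the partner's. There the partner's reporter ranked second in 8 and 1 place lower in 3. The exception was female tumour 19, with EYFP highest in both clones, at 916 in the major clone and 3919 in its partner. The single partner clone without a dominant reporter belonged to female tumour 23, where mCerulean had 3439 and hrGFP 2560, a ratio of 1.34 at levels well above those of the 8 major clones. No undivided tumour lacked a dominant reporter: all 23 had ratios of 2.42 or more. The same split could thus not be fitted in partner clones (1 against 19) or in undivided tumours (0 against 23).

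**Figure D2:**
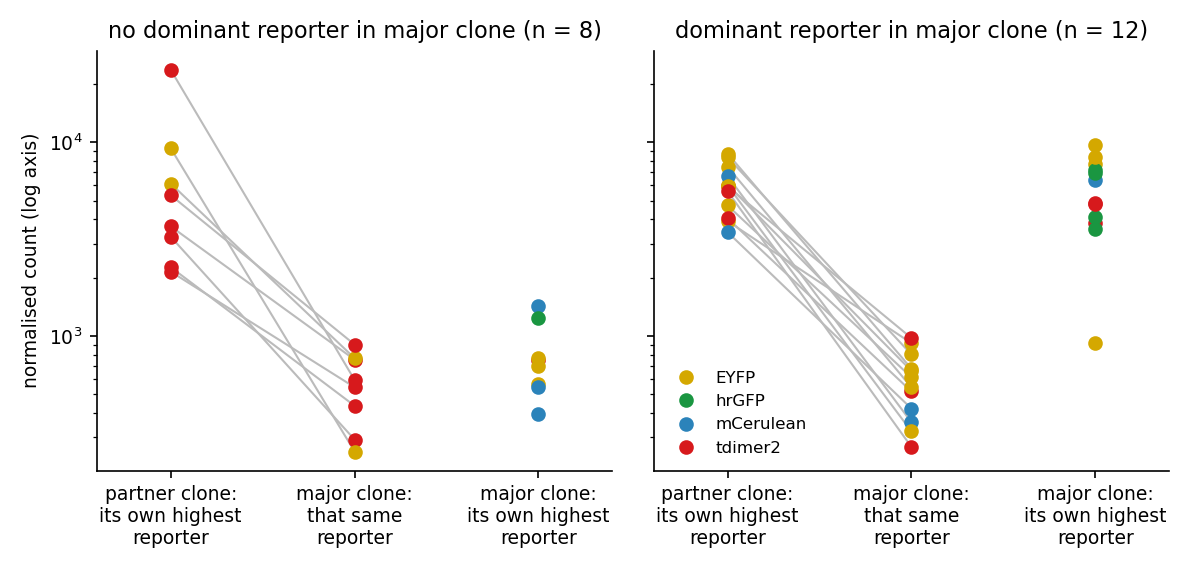
Normalised counts (log axis) in each tumour for the partner's highest reporter in the partner clone, that same reporter in the major clone (joined by a line), and the major clone's own highest reporter. Left, the 8 tumours whose major clone had no dominant reporter. Right, the 12 with one. Colours give the reporter, and every line falls, to between 2.49% and 25.2% on the left and between 4.76% and 23.4% on the right.

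The question was then whether the 2 kinds of major clone differed in genes other than the reporters. At an adjusted p under 0.05 (limma on log2 of the value plus 1, with mouse as a covariate), 0 of 16427 genes differed between them, which is 0.0%. At an unadjusted p under 0.05 there were 245 genes, or 1.49%, 106 of them higher and 139 lower without a dominant reporter. A test with no difference anywhere would place 5% of independent genes there. The smallest adjusted p rounded to 1. No gene separated the groups, as 0 of 16427 had all 8 values on one side of the other 12. The count of 245 depended on the grouping. It came to 833 at a reporter ratio threshold of 1.5, to 213 at a threshold of 3 and to 1098 with EYFP and mCerulean summed.

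The size of difference that these 20 libraries could show was bounded for most genes. The median absolute log2 difference was 0.10, with a median standard error of 0.19. For 80.7% of genes the 95% confidence interval lay within 1 on the log2 scale on either side of 0, and for 50.4% within 0.5. Among the 11721 genes with a mean of 100 or more the first share was 92.9%. In simulated libraries with 200 of 16427 genes changed, the same test called 20.5% of those changed by 0.5 on the log2 scale, 60.0% of those changed by 1 and 91.5% of those changed by 2. With no gene changed it called 1. Differences of 1, and some of 2, could thus also have gone uncalled. The simulated noise was drawn independently for each gene and clone. The real libraries had 1.49% of genes at an unadjusted limma p under 0.05, not the 5% of independent genes. The shares called in simulation may thus not hold for the real libraries.

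The other clone of each tumour, whose values the rule did not use, was compared by the group of its major clone. Of 16412 genes 0 (0.0%) passed, with limma, and 596 (3.63%) had an unadjusted p under 0.05. The gap between clones, major minus partner, did not differ between the groups for any of 16424 genes (0, or 0.0%, by limma), with 609 (3.71%) at an unadjusted p under 0.05. The smallest adjusted p was 0.989 in both. The first principal component of the 20 major clones, with 20.3% of the variance, did not part the groups (permutation p = 0.924), and nor did the second (14.1%, permutation p = 0.597). The 2 clones of a tumour stood about as far apart in both groups, with a median absolute log2 difference of 0.331 and 0.359 (group medians, permutation p = 0.280).

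**Figure D3:**
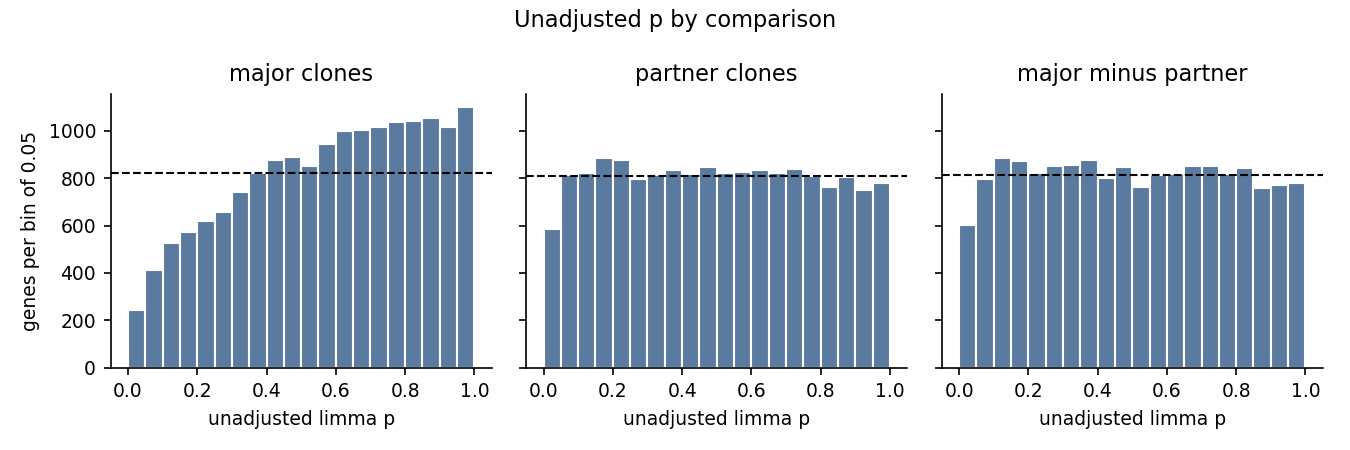
Number of genes in each bin of 0.05 of the unadjusted limma p, for the major clones, their partner clones and the gap between them, over the genes tested in major clones. Dashed lines mark an even spread. In all 3 panels the lowest bin falls below the line, at 245 genes in the major clones.

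None of the 3 genes tested at the Rosa26 locus, where the reporters sit, had an unadjusted p under 0.05, beside 1.49% of all genes, and all 3 had a fitted difference below 0. Setd5, a neighbouring gene for a chromatin protein, ranged from 1632 to 2376 normalised counts (median 1862) without a dominant reporter and from 1567 to 2178 (median 1867) with one. Its log2 difference was -0.01, with a 95% interval of -0.18 to 0.17. On the linear scale Setd5 had the higher mean without a dominant reporter (1935 against 1892), so its direction depended on the scale. Thumpd3 differed by -0.01 (-0.24 to 0.21). Gt(ROSA)26Sor, the non-coding transcript that the reporter cassette is inserted into, had a median of 92.9 (67.1 to 133) against 113 (79.1 to 205), a difference of -0.28 (-0.68 to 0.11). The groups overlapped for all 3, and the fourth gene of the list, Lhfpl4, was too low to test.

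None of the 17 genes for DNA methylation and transgene silencing had an unadjusted p under 0.05, a count near the 1.49% of all genes, and their median log2 difference was -0.02 (all genes 0.01). The maintenance methyltransferase Dnmt1 differed by -0.07 (-0.47 to 0.33) and its partner Uhrf1 by -0.00 (-0.39 to 0.38). Trim28, a corepressor that silences transposons, differed by 0.03 (-0.28 to 0.33), and the histone deacetylases Hdac1 and Hdac2 by -0.02 each. For 16 of the 17 the 95% interval lay within 1 on either side of 0, Tet1 being the exception at -0.43 (-1.30 to 0.43).

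No marker of crypt stem cells or of WNT output passed after adjustment. Of 12 stem cell genes 10 had a fitted log2 difference below 0 (median -0.15), and 0 had an unadjusted p under 0.05. Lgr5, the receptor that marks crypt base stem cells, had a median of 924 normalised counts (249 to 2423) without a dominant reporter and of 817 (444 to 2819) with one, a fitted difference of -0.31 (-1.09 to 0.47) that went against the order of the medians. Of 15 WNT targets 13 had a fitted difference below 0 (median -0.19), while on the linear scale the mean was higher without a dominant reporter for 8 of the 15, so the direction depended on the scale. Notum, a secreted WNT inhibitor, differed by -0.19 (-0.85 to 0.47) and Nkd1, another feedback inhibitor, by -0.16 (-0.98 to 0.66). Those 8 included both, with linear means of 5676 against 5305 for Notum and 8092 against 7465 for Nkd1. Rnf43, a ubiquitin ligase that removes WNT receptors, had the only unadjusted p under 0.05 of the 15, beside 1.49% of all genes, at -0.29 (p = 0.039, adjusted p rounding to 1), with 2401 to 5392 against 2755 to 5094 normalised counts. In the partner clones the medians of the 2 lists were 0.03 and 0.05, and Ccnd1, a cyclin of early cell cycle, was the 1 WNT target with an unadjusted p under 0.05 (0.45, p = 0.004), beside 3.63% of all genes.

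Growth genes were among those with narrow intervals. All 20 MYC targets had 95% intervals within 1 on either side of 0, with a median of 0.04, and so did all 18 genes of replication and mitosis, with a median of 0.05. Of the 18, 16 had a fitted difference above 0, and all 18 had a higher mean without a dominant reporter on the linear scale. Mki67, a marker of cycling cells, was 1 of the 2 with a fitted difference below 0, at -0.11 (-0.74 to 0.53), with linear means of 3093 against 2912. MAPK output had a median of -0.11 over 15 genes in the major clones. Hypoxia and glycolysis had a median of 0.13 over 13 genes. In the partner clones the medians were 0.16 for MYC targets, 0.36 for replication and mitosis, 0.33 for MAPK output and 0.14 for hypoxia and glycolysis, with 1, 2, 1 and 1 genes at an unadjusted p under 0.05, beside 3.63% of all genes. For the clone gap, major minus partner, MAPK output had a median of -0.38 with 3 of 15 genes at an unadjusted p under 0.05, beside 3.71% of all genes: the phosphatase Dusp4 (-0.46), the feedback inhibitor Spry4 (-0.65) and the receptor Epha2 (-0.47). The gap medians were -0.12 for MYC targets, -0.29 for replication and mitosis and -0.02 for hypoxia and glycolysis, with 1, 0 and 1 such genes. In these 4 lists 0 genes of the major clones had an unadjusted p under 0.05, beside 1.49% of all genes in that comparison.

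Among the differentiated lineages of the epithelium no gene passed after adjustment, and members of each list lay on both sides of 0. Enterocyte genes had a median of 0.15 over 15 genes, goblet cell genes of -0.02 over 12, Paneth cell genes of -0.06 over 9, enteroendocrine genes of -0.03 over 14 and tuft cell genes of -0.03 over 8. Of the 9 Paneth cell genes 6 had a fitted difference below 0. On the linear scale 7 of the 9 had a higher mean without a dominant reporter, so the direction depended on the scale. Intervals lay within 1 on either side of 0 for 8 of 15 enterocyte, 9 of 12 goblet, 4 of 9 Paneth, 10 of 14 enteroendocrine and 5 of 8 tuft cell genes, so larger differences remained possible for the rest, as for the lactase gene Lct (-1.33 to 2.03). Fetal and regenerative genes had a median of 0.15 over 12. With EYFP and mCerulean summed, the antimicrobial Paneth cell gene Lyz1 moved from -0.23 to -1.02 and the lipid carrier Apoa1 from 0.29 to 0.9998, with neither passing after adjustment. Spink4, a secreted goblet cell peptide, differed by 0.43 (p = 0.048 unadjusted), with 10050 to 20400 normalised counts against 3278 to 19400. Pyy, a gut hormone, differed by 0.65 (p = 0.027 unadjusted), with 46.7 to 199 against 13.7 to 180. They were the 1 of 12 goblet and the 1 of 14 enteroendocrine genes with an unadjusted p under 0.05, beside 1.49% of all genes. Neither passed after adjustment, and the groups overlapped for both. In the partner clones the medians were -0.18 for enterocyte, 0.24 for goblet, 0.10 for Paneth, -0.18 for enteroendocrine and -0.35 for tuft cell genes. There 1, 0, 0, 1 and 1 genes had an unadjusted p under 0.05, beside 3.63% of all genes. In the same order the clone gap had medians of 0.51, -0.19, -0.02, 0.03 and 0.28. For the gap 0, 1, 0, 0 and 0 genes had such a p, beside 3.71% of all genes.

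Among the lists of cells other than epithelium, those of red blood cells and of B and plasma cells held genes with an unadjusted p under 0.05. The 5 red blood cell genes were lower without a dominant reporter in the fit, with a median of -0.77 on the log2 scale, and all 5 had an unadjusted p under 0.05, against 1.49% of all genes. None passed after adjustment. Hbb-bt, a haemoglobin chain, had 206 to 779 normalised counts (median 416) without a dominant reporter and 415 to 1629 (median 693) with one. Its difference was -0.77 (-1.33 to -0.21, p = 0.009 unadjusted). The 5 genes together came to 5416 to 10521 (median 6493) against 5840 to 25248 (median 11312), so the groups overlapped. The medians kept this order in each mouse, at 6208 against 10296 in the female and 6779 against 11948 in the male. In the partner clones the list had a median of -0.12. There 0 of the 5 genes had an unadjusted p under 0.05, beside 3.63% of all genes. For the clone gap, major minus partner, the median was -0.65, with 2 of the 5 at such a p, beside 3.71% of all genes. These are genes of 1 cell type and not 5 separate observations, and the amount of blood in the dissected pieces was not measured.

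The 8 genes of B and plasma cells that could be tested all lay above 0, with a median of 0.70, and 2 had an unadjusted p under 0.05, beside 1.49% of all genes. Jchain, which joins secreted IgA, had 2270 to 15919 normalised counts (median 9878) without a dominant reporter and 1300 to 9940 (median 4073) with one, a difference of 0.76 (0.03 to 1.49, p = 0.043 unadjusted). Ighm, the heavy chain of IgM, differed by 0.71 (p = 0.035 unadjusted). Together the 8 genes came to 15945 to 142099 (median 78754) against 10866 to 95887 (median 38425). Within the female mouse the medians were nearly level, at 67445 and 66688, and within the male they were 90063 over 3 clones and 20554 over 7. The partner clones had a median of 0.34, with 0 of the 8 genes at an unadjusted p under 0.05, beside 3.63% of all genes. For the clone gap the median was 0.38. There 1 of the 8 had such a p, beside 3.71% of all genes: Ighm, at 0.92 (limma p = 0.031 unadjusted). Ms4a1, a marker of B cells, was too low to test. In bulk libraries of this kind, fewer cells of a type and less RNA per cell cannot be told apart.

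The other stromal and immune lists had 0 genes with an unadjusted p under 0.05, apart from interferon response with 1 of 15. All 10 endothelial genes lay below 0 (median -0.42), and 6 had an interval that reached past 1 from 0. Cdh5, a vascular cadherin, differed by -0.32 (-1.34 to 0.70). Mast cell genes had a median of -0.69 over 7, fibroblasts of -0.19 over 14, smooth muscle of -0.05 over 10, enteric nerve and glia of -0.17 over 3, macrophages and neutrophils of 0.03 over 12, T and cytotoxic lymphocytes of 0.01 over 12 (-0.56 in the partner clones, with 2 genes at an unadjusted p under 0.05, beside 3.63% of all genes) and MHC class II genes of 0.07 over 8. The mast cell median included Fcer1a, which met the filter on the mean only through the group where it was high. Nothing is thus drawn from that median. The standard errors of the stromal and immune lists were wide, with a median of 0.50 for fibroblasts beside 0.14 for epithelium. Usp18, an interferon-induced protease, differed by -0.86 (p = 0.029 unadjusted), and 14 of the 15 interferon genes lay below 0 (median -0.24). Over all 26 lists 11 of 300 genes had an unadjusted p under 0.05, beside 1.49% of all genes, and 5 of the 11 were the red blood cell genes.

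**Figure D4:**
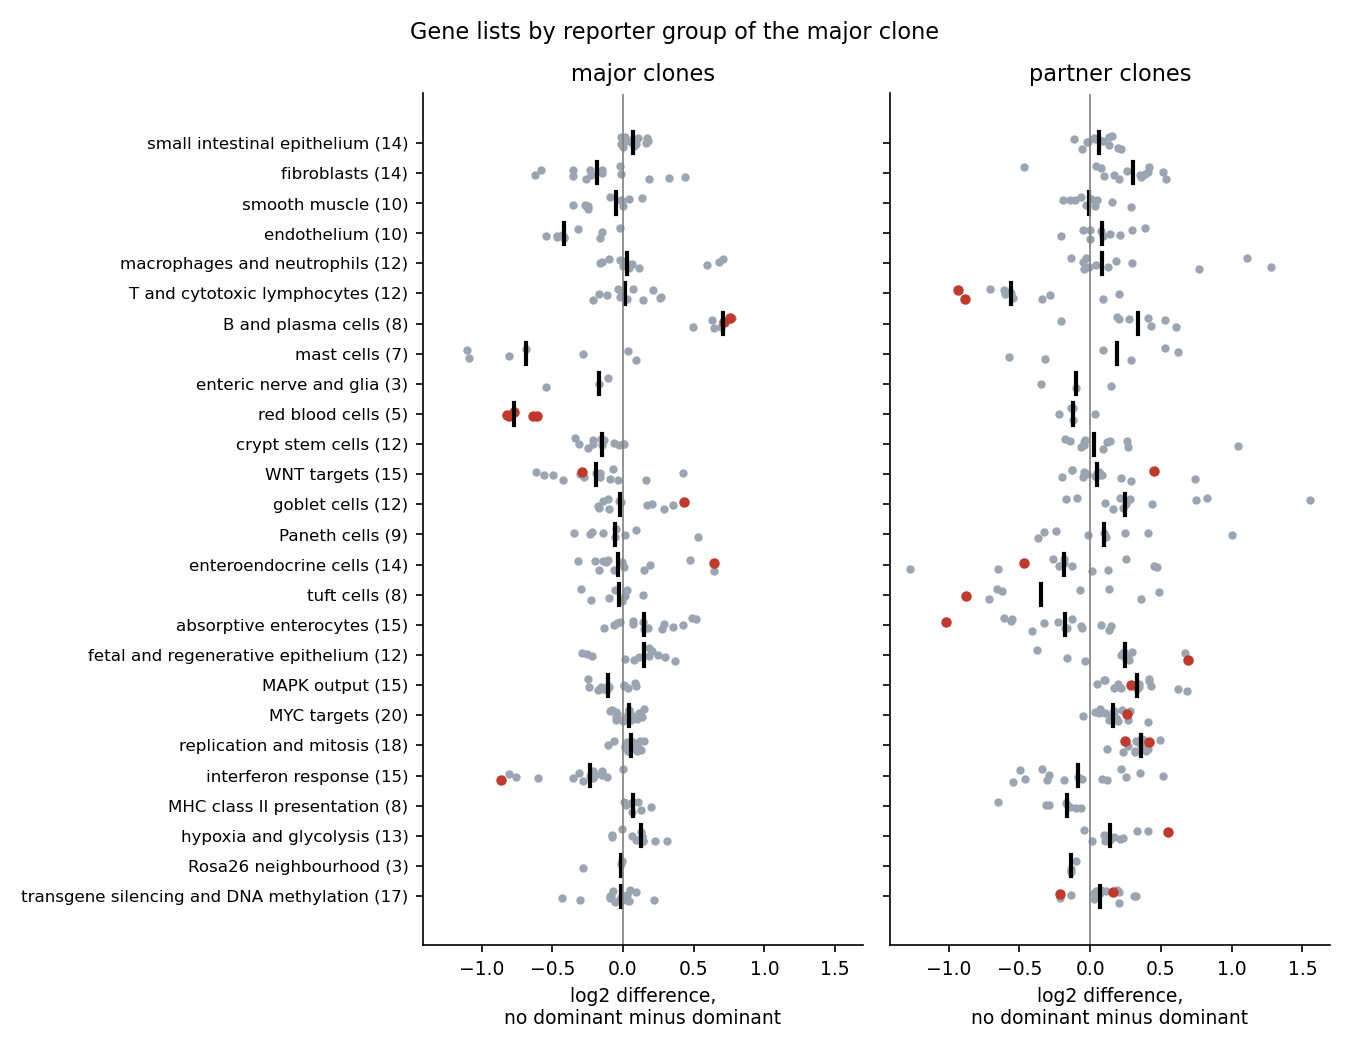
Log2 difference, no dominant minus dominant reporter of the major clone, for each gene (points) of 26 lists, with the number tested in brackets and the list median as a black bar. Left, major clones. Right, their partners. Red points have an unadjusted limma p under 0.05 and none passes after adjustment. On the left the medians farthest from 0 are those of red blood cells (-0.77), B and plasma cells (0.70), mast cells (-0.69) and endothelium (-0.42). The mast cell median includes Fcer1a, which met the filter on the mean only through the group where it was high. Kit and Mcpt2, the most abundant of that list, lay near 0, at 0.10 and 0.03.

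With no gene past the threshold, the 10 genes of smallest unadjusted p in each direction are given as values. Positions are from Gencode M39 on GRCm39. Fras1, which encodes an extracellular matrix protein of basement membranes (chr5:96521814-96932587, plus strand), had 37.8 to 130 normalised counts (median 52.6) without a dominant reporter and 41.4 to 371 (median 127) with one. Its log2 difference was -1.22 ± 0.33 (limma SE, 8 against 12 clones), and -0.16 in the partner clones. Mfge8, a secreted protein that bridges dying cells to phagocytes (chr7:78783515-78798825, minus strand), was the most abundant of the 20, at 3870 to 6405 (median 4705) against 3429 to 9118 (median 6636). Its difference was -0.46 ± 0.13 in the major clones and 0.06 in the partners. Values of the 2 groups overlapped for both genes.

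Rtn4rl1, a receptor of the Nogo family (chr11:75084149-75160918, plus strand), had 279 to 724 (median 392.45) against 474 to 876 (median 616), a difference of -0.56 ± 0.16. It was the one gene of the lower 10 with an unadjusted p under 0.05 in the partner clones too, beside 3.63% of all genes there. The difference in the partners was -0.73 (p = 0.002). Shc2, a signalling adaptor (chr10:79453760-79473769, minus strand), had 11.0 to 43.2 (median 24.9) against 28.1 to 114 (median 53.8). It differed by -1.03 ± 0.29, and by -0.76 in the partners (p = 0.094). The non-coding 5830444B04Rik (chr4:155483207-155519397, minus strand) had 1.13 to 59.6 against 43.1 to 173, a difference of -1.85 ± 0.51 that came to -3.09 in the male mouse alone and to -0.16 with EYFP and mCerulean summed. Cers3, a ceramide synthase (chr7:66393252-66473439, plus strand), had 48.5 to 228 (median 79.0) against 77.3 to 589 (median 163). It differed by -0.85 ± 0.26 in the major clones, by -0.19 with EYFP and mCerulean summed, and by 0.16 in the partners. Lrrc26, Dnaja4, Pla2g15 and Cdh13 made up the 10, with differences of -0.38, -0.44, -0.41 and -0.75.

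Among the 10 genes on the higher side, 5 were pseudogenes and most were low. Pax8, a transcription factor of kidney and thyroid (chr2:24309418-24365617, minus strand), had 67.0 to 179 normalised counts (median 127) without a dominant reporter and 34.4 to 137 (median 64.6) with one, a difference of 0.79 ± 0.28. Pi16, a peptidase inhibitor found in fibroblasts (chr17:29536654-29549567, plus strand), had 2.56 to 54.0 (median 16.6) against 0.32 to 22.05 (median 4.07), a difference of 1.72 ± 0.56. Its mean was 22.5 without and 5.55 with a dominant reporter. It thus met the mean of 10 only through the group where it was high, and nothing is drawn from its rank. Iglv2, a variable segment of the immunoglobulin light chain (chr16:19079151-19079609, minus strand), had medians of 25.4 and 28.7 normalised counts, while the fit, which allows for the mouse, gave 1.45 ± 0.47. The raw medians and the fitted difference thus pointed opposite ways for that gene.

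Another 3 genes of the higher side were listed at 0 in many libraries. Gm44973 was listed at 0 in 1 of 8 clones without a dominant reporter and in 8 of 12 with one, and its values otherwise reached 48.0 and 47.1. Its log2 difference was 3.02 ± 0.92, and -1.29 in the partners. Its mean was 26.7 without and 8.65 with a dominant reporter. Gm44973 thus met the filter on the mean only through the group where it was high, and nothing is drawn from its rank. Gm20503 was listed at 0 in 1 of 8 and in 6 of 12, with a difference of 2.71. Gm2436, a pseudogene (chr12:55188894-55201681, minus strand), was listed at 0 in 1 of 8 and in 7 of 12. It differed by 3.61 ± 1.28 in the major clones and by 3.82 ± 1.36 in the partners (p = 0.011 unadjusted in each). Gm16199, Gm13039, Gm17826 and Gm7466, all processed pseudogenes, differed by 0.67 to 0.85. The mean of Gm17826 was 15.9 without and 7.81 with a dominant reporter. It too met the filter only through the higher group, and nothing is drawn from its rank. Pseudogenes can take reads from their parent genes, so these values are uncertain.

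**Figure D5:**
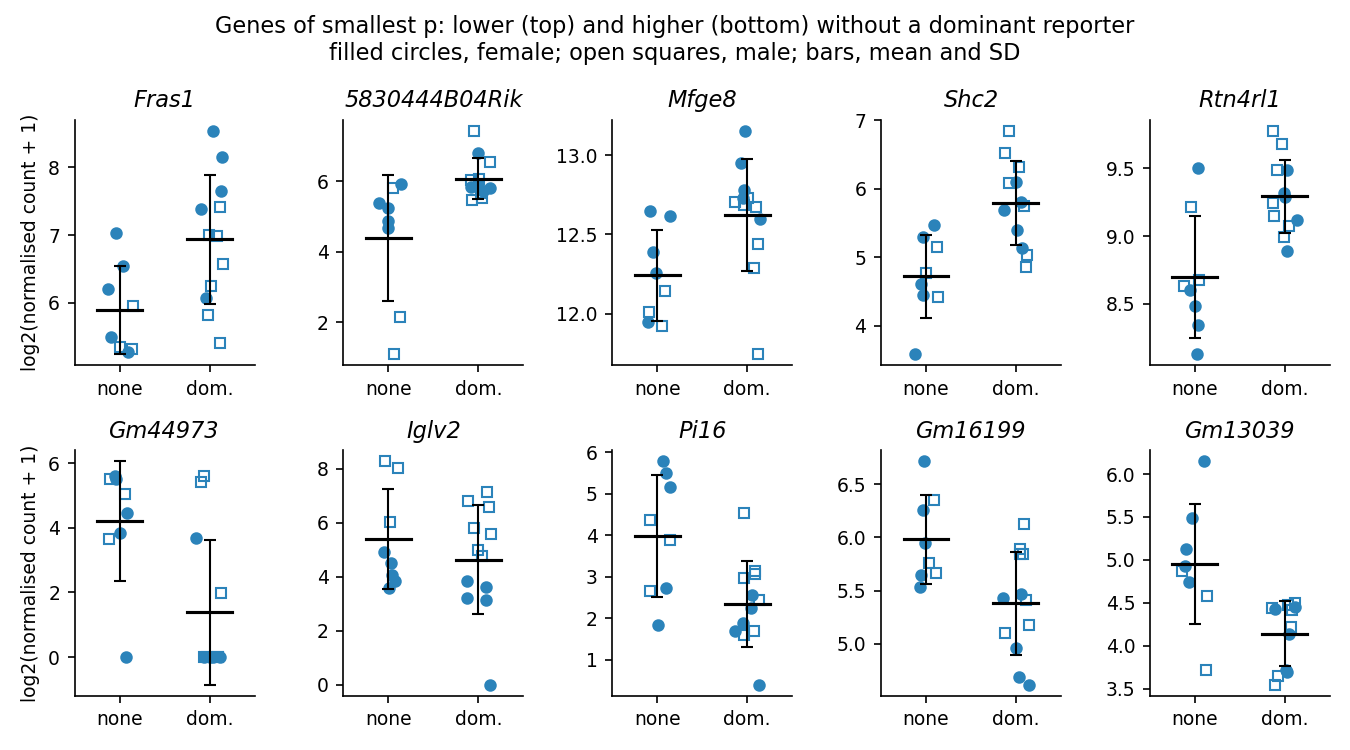
Log2 of the normalised count plus 1 in each major clone for the 5 genes of smallest unadjusted p on the lower side (top) and the higher side (bottom), without (none) and with (dom.) a dominant reporter. Filled circles are the female mouse, open squares the male, and bars the mean and SD. The groups overlap in every panel, and no gene passes after adjustment.

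The groups were not balanced along the gut. Both tumours of the segment labelled SI30 (female tumours 29 and 30) had a major clone without a dominant reporter, that is 2 of 8 against 0 of 12 (Fisher's exact test, two-sided, p = 0.147). Segment SI10 held 2 of 8 and 5 of 12 (Fisher's exact p = 0.642), and the female mouse 5 of 8 and 5 of 12 (Fisher's exact p = 0.650). With the SI30 clones left out, an alternative added after the data were seen, 0 of 16424 genes differed by limma, with 538 at an unadjusted p under 0.05. For the interaction of group and mouse, added likewise, limma called 0 genes and 386 fell under an unadjusted p of 0.05.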

How the data were processed

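RNA of 63 dissected samples was sequenced from polyA-selected, stranded libraries. As deposited by the authors, the values are a signal per gene, named normalised counts: reads trimmed with Trimmomatic (0.39), quantified with Salmon (1.9.0) against Gencode on GRCm39 and scaled between libraries. DESeq2 is named in the submitters' processing notes. FastQC (0.11.9), STAR (2.7.7a) and Picard (2.27.3) are named there too. Values are not whole, so no count test was run.

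Major clones were named by the study, not by the sample labels. Groups followed the reporter ratio (threshold 2). Genes with a mean of at least 10 were tested with limma (3.58.1, R 4.3.3; lmFit, eBayes with trend) on log2(value + 1) with mouse as a covariate and Benjamini-Hochberg adjustment, threshold 0.05. The 4 reporters got no test. The test was tried on simulated data with independent noise for each gene and clone. Library measures used 100000 permutations within mouse (SciPy 1.17.1). Named genes were the reporters, the 10 of smallest p each way, the 2 most abundant or any called of each list, and others chosen after their values were seen. Members and lists were chosen with earlier results of these data known.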

Additional observations from a re-analysis of the deposited data

Results flagged for a closer look

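Among the 8 major clones without a dominant reporter, 8 of 79 library measures and gene values screened had 1 clone far from the nearest of the others (gap over range above 0.526 on the log2 scale, after adding 1 for genes, which chance exceeds in about 1 in 20 such groups). Cers3 stood at 228 normalised counts in male tumour 20, with the next at 87.3 (values here are linear). Another 2 genes were listed at 0 in a single clone: Gm44973 in female tumour 30 (value 0, next 11.4) and Gm2436 in female tumour 29 (value 0, next 94.5).

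Male tumour 23 had the lowest Igha, the heavy chain of IgA, at 4100 against 20140 in the next clone, and the lowest Avil, a tuft cell gene, at 3717 against 5345. Female tumour 29, of segment SI30, had the lowest Apoa4 and Apoa1, lipid carriers of enterocytes, at 46130 (next 198500) and 44430 (next 125200), and the lowest Clu, a regenerative marker, at 28820 (next 55810). The screen shares clones and genes, so these values are not separate observations.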

How the results depend on the processing

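No alternative changed the count of 0 genes: it was 0 in all 39 for the major clones and in every one run for the partner clones and the clone gap. For the major clones these included other pseudocounts, filters, scalings, covariates and reporter thresholds. They also included each mouse alone, a rank test, and each library left out in turn. For the partner clones and the gap they were another pseudocount, filter and scaling, segment SI30 left out, and each tumour left out in turn. In the major clones, genes at an unadjusted p under 0.05 numbered 158 (mean of at least 50) to 1098 (EYFP and mCerulean summed, 3 against 17). Leaving out 1 library gave 212 to 453 in the major clones, 364 to 1034 in the partners and 444 to 930 for the gap. Male tumour 19 gave the highest in all 3, shared with female tumour 29 for the gap. Leaving out female tumour 29 gave 450 and male tumour 23 gave 371 in the major clones, and in the partners male tumour 20 gave 364 and female tumour 23 gave 382. Without a filter the smallest adjusted p was 0.0589 over 24749 genes. Scaling libraries to the same sum moved the median difference from 0.01 to -0.04. Of 2802 alternative values of 76 named genes 202 had another sign. For the 20 genes of smallest p it was 0 of 731, which their choice by p on the same clones largely fixed.

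No paired analysis was possible because the groups are different tumours and share no replicate. The clone gap uses the pairs within tumours. Alternatives planned for partner clones and undivided tumours by their own reporter were not run, since 1 and 0 libraries had no dominant reporter. With EYFP and mCerulean summed, 10 named genes moved by more than the spread between clones: Cers3 to -0.19, 5830444B04Rik to -0.16, Ncl to -0.23, Lyz1 to -1.02, Apoa1 to 0.9998, Zg16 to 0.88, Gzma to 0.78, Fcgbp to 0.53, Chga to 0.50 and Ldha to 0.37. In the male mouse alone 5830444B04Rik moved to -3.09 and Gm13039 to 0.22. The cause was not tested.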
